A study of Mus musculus with 10 samples.

Results

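The 37 genes described here act in DNA replication and S phase, and were taken by name from 46517 Ensembl genes of the count tables. All 37 were found, each under 1 Ensembl identifier. Their names were listed by function and not by a cutoff on a measured value, but with earlier results of these data known. They were grouped by textbook role into origin licensing (8 genes), helicase activation (5), polymerases and clamp (8) and flap processing and ligation (3). Further groups were nucleotide supply (5), chromatin (5) and control of the G1/S transition (3). The cells came from ear skin of mice in which an activating Pik3ca allele was switched on in lymphatic and blood endothelium, a model of vascular malformations. Lymphatic endothelial cells (LECs) line lymphatic vessels and blood endothelial cells (BECs) line blood vessels.

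Of the 7 mice used, 5 were Pik3caH1047R;Cdh5-CreERT2 and Cre+, and had received 4-hydroxytamoxifen (4-OHT) on the ears at 3 wk of age (mutants 1 to 5). Control 1 was an untreated C57BL/6J mouse. Control 2 was a Cre- mouse of the Pik3caH1047R;Cdh5-CreERT2 strain that had received 4-OHT. All were 5 wk old. Another Cre- mouse was not analysed here. The Cdh5 promoter is active in both kinds of endothelium, and the transgene itself has no entry in the tables, so cells that had recombined were not told from those that had not. Cells were sorted with antibodies to Podoplanin and CD31, after exclusion of dead cells and of cells positive for CD45, CD11b or Ter119, into 384-well plates for Smart-Seq2, which sequences along the whole cDNA without molecular barcodes. Mutants 3 and 5 had 2 plates each and the other mice 1.

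A cell copies its genome in a fixed order of steps. Minichromosome maintenance (MCM) proteins are loaded on origins by Cdc6 and Cdt1 in G1, and are then switched on as a helicase by Cdc45, the GINS complex and Mcm10. Polymerases, the sliding clamp PCNA and its loader RFC copy the strands, flap nucleases and ligase join the fragments, ribonucleotide reductase and related enzymes supply the nucleotides, and chromatin factors restore nucleosomes and DNA methylation. Many of these genes are transcribed at the G1/S transition under E2F factors, which cyclin E and its kinase help to release from the retinoblastoma protein.

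The plates held 99738886 to 151102969 reads, and 3248 of 3456 wells passed the limits on genes, reads and mitochondrial share. Although the labels call the cells LECs, the plates held both kinds of endothelium. By summed CPM (reads of a gene per 1e6 reads of the cell) of Prox1, Flt4 and Mmrn1 against Flt1, Emcn and Podxl, 1641 cells were LECs (1283 mutant and 358 control) and 1490 were BECs (1174 and 316), while 117 were neither. Summed LEC markers stood at 3671 to 5980 CPM in the LECs of single mice and at 92.9 to 229 CPM in their BECs. Summed BEC markers were less apart, at 1928 to 2392 CPM in BECs and at 498 to 690 CPM in LECs. At least 100 CPM of BEC markers was seen in 1334 of the 1641 LECs, and of LEC markers in 514 of the 1490 BECs. Plate numbers fell into a low series with mutants 1 to 4 and a high series with mutant 5 and both controls, so that plate series and genotype are largely the same split. The summed level of 6 fibroblast markers (Col1a1, Col1a2, Col3a1, Dcn, Pdgfra and Lum, all read in each mouse) was also lower in mutant mice, at 24.2 to 126 against 216 to 386 CPM in LECs and at 25.9 to 67.8 against 479 to 644 CPM in BECs. Summed mural markers (Acta2, Rgs5, Pdgfrb, Myh11, Cspg4 and Tagln) were lower in BECs of mutant mice too, at 180 to 344 against 478 to 848 CPM, while in LECs they overlapped (32.0 to 68.9 against 67.8 to 275 CPM). The LEC markers themselves stood at 3671 to 5375 CPM in mutant and 5516 to 5980 CPM in control LECs. The part of these lists in the results below was not tested.

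The promoters of the licensing genes are shown because most of them hold the same short letters. In 32851 mouse promoters of RefSeq (GRCm38.p6, from 250 bases before to 50 after the start), 744 (2.26%) held an E2F-type sequence, counted as TTTCCCGC, TTTGGCGC, TTTCGCGC or TTTGCCGC on either strand. Among the 35 promoters matched to 30 of the 37 genes, 13 (37.1%) held one. A CCAAT box, on either strand, was in 37.4% of all promoters and in 19 of the 35 (54.3%). Of the 8 licensing genes 7 were matched, and Mcm2 alone of these held no E2F-type match. Windows of 60 bases with the matches in capitals read as follows, 5′ to 3′ on the strand of the gene.
Mcm3, chr1:20820263-20820322, minus strand, bases -10 to 49 from the start: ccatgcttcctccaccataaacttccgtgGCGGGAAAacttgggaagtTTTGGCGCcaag
Mcm5, chr8:75109334-75109393, plus strand, bases -175 to -116: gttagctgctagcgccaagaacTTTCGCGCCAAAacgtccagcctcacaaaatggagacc
Mcm6, chr1:128359719-128359778, minus strand, bases -73 to -14: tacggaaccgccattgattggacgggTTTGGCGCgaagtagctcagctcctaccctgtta
Mcm7, chr5:138171834-138171893, minus strand, bases -10 to 49: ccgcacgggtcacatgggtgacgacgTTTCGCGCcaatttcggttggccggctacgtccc
Cdc6, chr11:98907987-98908046, plus strand, bases -164 to -105: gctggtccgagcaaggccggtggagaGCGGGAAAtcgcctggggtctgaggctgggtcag
Cdt1, chr8:122568005-122568064, plus strand, bases -10 to 49: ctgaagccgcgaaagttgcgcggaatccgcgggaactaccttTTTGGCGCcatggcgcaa
In Mcm5 the capitals cover a pair of overlapping matches, 1 on each strand. A match describes the letters of the window and is not evidence of binding. The genes with a match did not move alike, as the values of Mcm5 and Mcm7 below show.

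Most of the 37 genes stood higher in LECs of mutant mice. The reads of all LECs of a mouse were added up, so that the mouse was the unit of the test, and CPM of these sums are given after TMM scaling. A gene was called when its Benjamini-Hochberg adjusted p in edgeR's quasi-likelihood test over all 19758 genes tested was under 0.05. Of the 37 genes, 8 were called higher (Mcm5, Mcm10, Cdc45, Rrm1, Rrm2, Tk1, Chaf1b and Ccne1) and 0 lower, where 1.96% of all genes tested were called higher. At an unadjusted p under 0.05 there were 22, and 20.1% of all genes. The log2 fold change was above 0 for 33 genes, and its median was 0.88, against -0.01 over all genes tested. All mutant mice stood above both controls for 22 of the 37 genes, where 13.8% of all genes lay wholly above. They stood below both for 1 (Rfc3), where 11.7% of all genes lay wholly below. DESeq2 called 20 of the 37 higher, against 8.0% of all genes. The log2 median was 0.60 in mutant 5 alone, whose plates share a series with the controls, with 29 genes above 0. Over all genes tested the median in mutant 5 alone was -0.06. With series as a block, a fit that rests on mutant 5, the calls were Rrm1 (edgeR adjusted p = 0.0368) and Tk1 (edgeR adjusted p = 0.0383). Over all genes, 141 of 22317 were called higher in this fit. Without control 1 the calls fell to 2, Rrm2 and Tk1, and without mutant 4 to 5.

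**Figure D1:**
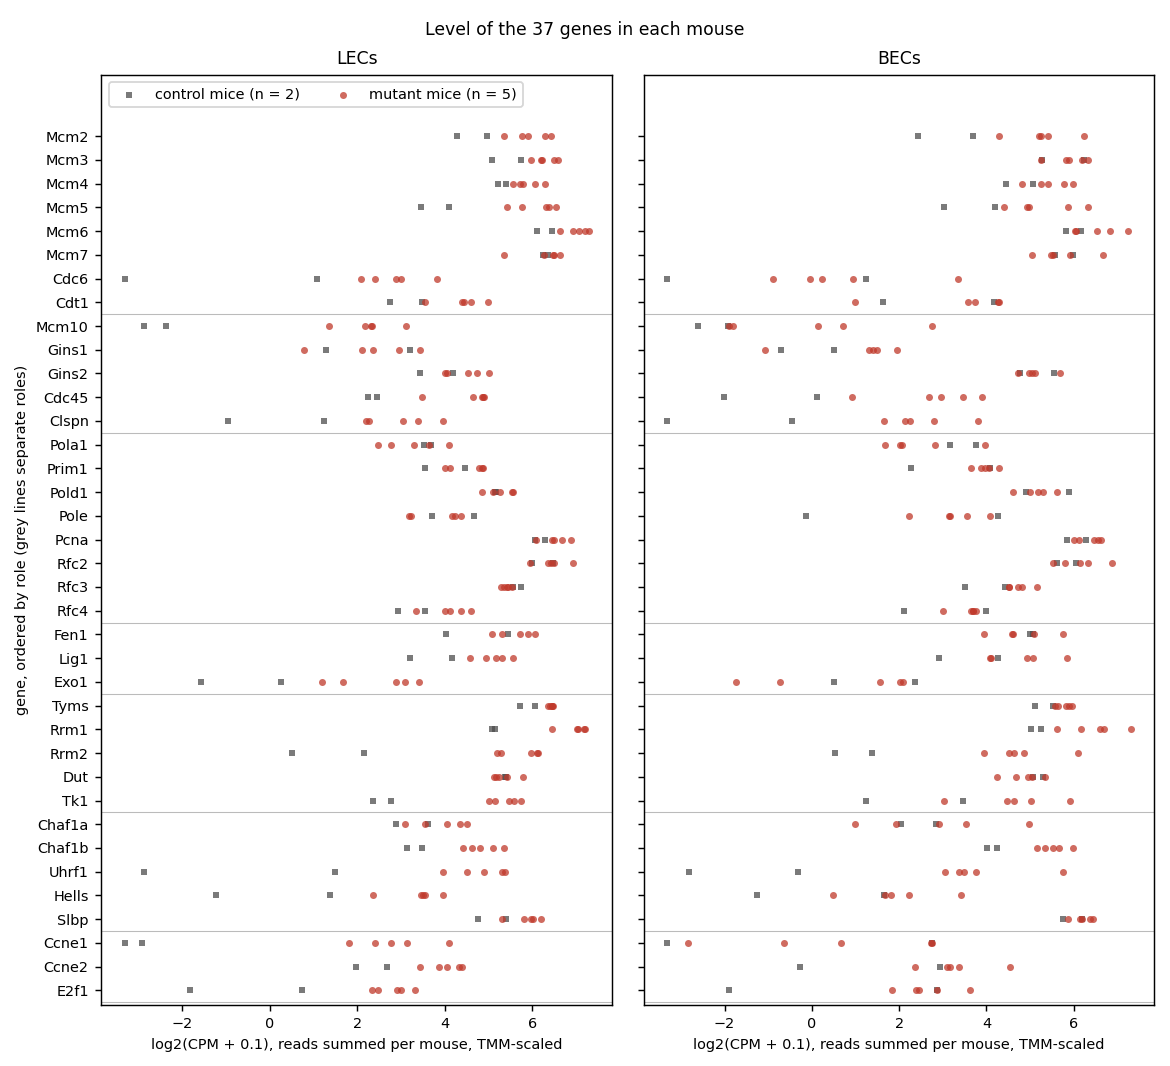
Each point is 1 mouse, with log2(CPM + 0.1) of its summed LECs (left) or BECs (right) on the x axis and the 37 genes, ordered by role, on the y axis (grey squares, 2 control mice; red circles, 5 mutant mice). In LECs the red points lie wholly to the right of the grey ones for 22 genes, among them Mcm5, Cdc45, Rrm1, Rrm2 and Tk1, while they overlap for 7 of the 8 genes of the polymerases and clamp.

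The licensing genes spanned the whole range from no difference to a call. Mcm5 (chr8:75109569-75128439), a subunit of the MCM2-7 ring, was at 10.9 and 17.0 CPM in the LECs of controls 1 and 2. In mutants 1 to 5 it was at 93.5, 83.6, 53.8, 78.9 and 42.7 CPM. Every mutant mouse was above both controls, and the log2 fold change was 2.33 ± 0.38 (SE; edgeR adjusted p = 0.0238). Mcm7 (chr5:138164583-138172422), another subunit of the same ring, was at 75.6 and 81.4 CPM in the controls. In mutants 1 to 5 it was at 98.8, 90.5, 88.4, 76.6 and 40.4 CPM. The groups overlapped, with mutant 5 lowest, and the log2 fold change was 0.01 ± 0.31 (edgeR adjusted p = 0.991). Mcm7 shares 12.6% of its exon bases with Ap4m1 on the opposite strand, and reads of the pair cannot be told apart because the method does not mark strand. Mcm6 was at 87.5 and 68.4 CPM in controls and at 122, 157, 133, 147 and 98.4 CPM in mutants (log2 fold change 0.76 ± 0.21, edgeR adjusted p = 0.0981). Mcm3 was at 53.1 and 33.9 CPM against 74.1, 95.8, 73.6, 90.1 and 62.4 CPM (log2 fold change 0.86 ± 0.25, edgeR adjusted p = 0.104). Neither of these subunits overlapped between groups, and neither did Mcm2 (log2 fold change 1.33) or Mcm4 (0.60), none of them called.

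The loaders of the ring were low in control LECs. Cdc6 (chr11:98907801-98923940) was at 0 and 2.02 CPM in the controls and at 14.1, 7.31, 7.94, 5.18 and 4.14 CPM in mutants 1 to 5. The groups did not overlap, but the spread between the controls left the log2 fold change of 2.93 ± 1.46 uncalled (edgeR adjusted p = 0.302). Cdt1 was at 6.59 and 11.0 CPM in the controls and at 24.1, 21.0, 31.6, 21.5 and 11.6 CPM in the mutants. Here mutant 5 was only just above control 2, and the log2 fold change was 1.32 ± 0.43 (edgeR adjusted p = 0.138).

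Among the genes of helicase activation, 2 of 5 were called. Cdc45 (chr16:18780447-18811987), which joins MCM2-7 and GINS in the working helicase, was at 5.35 and 4.61 CPM in control LECs. In mutants 1 to 5 it was at 29.6, 29.3, 24.9, 28.7 and 11.1 CPM. All mutant mice were higher, mutant 5 by the least, and the log2 fold change was 2.31 ± 0.45 (edgeR adjusted p = 0.0379). Mcm10 (chr2:4989714-5012791) was nearly unread in control LECs, with 8 reads in both mice together, and stood at 4.39, 4.88, 4.93, 8.58 and 2.45 CPM in mutants 1 to 5. Its log2 fold change was 6.24 ± 0.90 (edgeR adjusted p = 0.0170). Clspn, which encodes the checkpoint mediator claspin, was higher in each mutant mouse but not called (log2 fold change 2.68 ± 0.85, edgeR adjusted p = 0.132). The GINS genes differed least in this group. Gins1 overlapped between groups, at 2.33 and 9.04 CPM against 1.61 to 10.7 CPM (log2 fold change 0.04 ± 0.77, edgeR adjusted p = 0.983). For Gins2 the value of 0.67 is uncertain, since 67.3% of its exon bases are shared with Gse1 on the opposite strand.

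The copying machinery itself showed the smallest differences. None of the 8 genes of the polymerases and clamp was called, none had an unadjusted p under 0.05, and DESeq2 called 0. Their log2 fold changes ran from -0.34 to 0.88, with a median of 0.16. Pcna (chr2:132249162-132253314), the sliding clamp, was at 77.5 and 66.8 CPM in the controls and at 102, 117, 87.2, 90.1 and 67.6 CPM in mutants 1 to 5. Mutant 5 lay between the controls, and the log2 fold change was 0.36 ± 0.22 (edgeR adjusted p = 0.393). It was -0.08 in mutant 5 alone. Pcna has the annotated pseudogenes Pcna-ps1 and Pcna-ps2, with which reads could be split. Rfc4 had the largest value of the group, at 7.51 and 11.5 CPM against 24.1, 20.4, 17.2, 15.8 and 10.0 CPM. Again mutant 5 overlapped the controls, and the log2 fold change was 0.88 ± 0.40 (edgeR adjusted p = 0.264). Rfc4 shares 12.7% of its exon bases with Eif4a2 on the opposite strand. The catalytic subunits Pola1, Pold1 and Pole and the primase subunit Prim1 had log2 fold changes of -0.24, 0.12, -0.34 and 0.50.

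Of the genes that finish the lagging strand, none was called. Fen1, the flap endonuclease, was at 43.5 and 16.2 CPM in controls and at 59.9, 52.8, 33.9, 66.5 and 39.2 CPM in mutants (log2 fold change 0.76 ± 0.42, edgeR adjusted p = 0.348). The controls differed more than 2-fold, so that Fen1 overlapped, and 84.2% of its exon bases are shared with Gm10143 on the opposite strand. Exo1, an exonuclease of replication and mismatch repair, was at 0.235 and 1.10 CPM against 10.5, 8.34, 3.10, 7.24 and 2.18 CPM. It did not overlap (log2 fold change 3.23 ± 0.96, edgeR adjusted p = 0.111). The ligase Lig1 did not overlap either and had a log2 fold change of 1.39.

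Nucleotide supply held the most calls, 3 of 5 genes. Rrm2 (chr12:24708241-24714146), the small subunit of ribonucleotide reductase whose protein is made in S phase, was at 4.32 and 1.31 CPM in control LECs. In mutants 1 to 5 it was at 69.3, 70.0, 36.6, 62.2 and 38.9 CPM, and the log2 fold change was 4.30 ± 0.59 (edgeR adjusted p = 0.0138). Rrm1 (chr7:102441695-102469771), the large subunit, was at 33.4 and 35.1 CPM in controls and at 129, 144, 131, 148 and 87.7 CPM in mutants, a log2 fold change of 1.90 ± 0.24 (edgeR adjusted p = 0.00991). Both subunits were higher in each mutant mouse by far more than the gap between controls. Tk1 (chr11:117815526-117826092), the thymidine kinase of the salvage route, was at 6.76 and 5.04 CPM against 48.0, 53.6, 31.9, 44.2 and 35.3 CPM, a log2 fold change of 2.85 ± 0.32 (edgeR adjusted p = 0.00623). Rrm2 and Tk1 were called in each of the 7 fits that left out 1 mouse. In contrast Dut, the enzyme that removes dUTP, was at 41.1 and 42.3 CPM against 37.7, 54.7, 35.9, 42.6 and 34.7 CPM. The Dut values overlapped, with a log2 fold change of -0.02 ± 0.23 (edgeR adjusted p = 0.972). Thymidylate synthase, Tyms, lay above both controls in every mutant mouse by a small step, at 82.0 to 89.3 against 52.6 and 66.7 CPM (log2 fold change 0.53 ± 0.16, edgeR adjusted p = 0.111). Tyms has the annotated pseudogene Tyms-ps, with which reads could be split, here and in the contrasts below.

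Of 5 chromatin genes 1 was called. Chaf1b (chr16:93883901-93906115), a subunit of the histone chaperone CAF-1, was at 11.0 and 8.66 CPM in control LECs and at 27.9, 34.2, 24.4, 40.5 and 21.1 CPM in mutants. The groups did not overlap (log2 fold change 1.59 ± 0.33, edgeR adjusted p = 0.0461). Uhrf1, which guides maintenance of DNA methylation, was at 0.0361 and 2.72 CPM against 29.5, 39.6, 22.5, 41.3 and 15.4 CPM. Its log2 fold change of 4.42 ± 1.22 was among the largest but not called (edgeR adjusted p = 0.0948). The controls differed strongly from each other here, and without control 2 the value was 9.64, without control 1 3.47. Slbp, which binds the stem-loop of histone mRNAs, was at 41.9 and 26.9 CPM against 62.5, 64.7, 55.5, 72.8 and 39.6 CPM. Mutant 5 overlapped control 1 for Slbp (log2 fold change 0.78 ± 0.29, edgeR adjusted p = 0.180).

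The 3 genes of G1/S control were all higher in each mutant mouse, and 1 was called. Ccne1 (chr7:38097984-38107534), cyclin E1, had 0 and 2 reads in the LECs of controls 1 and 2 and 3906 in those of the mutants. It was at 17.1, 3.42, 8.62, 5.21 and 6.67 CPM in mutants 1 to 5 (edgeR adjusted p = 0.0170), a ratio of 464 with a 95% counting interval of 128 to 3830. Ccne2, cyclin E2, was at 6.27 and 3.79 CPM against 14.4, 20.0, 20.9, 16.5 and 10.6 CPM (log2 fold change 1.71 ± 0.41, edgeR adjusted p = 0.0649). Ccne2 shares 17.4% of its exon bases with Ints8 on the opposite strand. E2f1, the transcription factor, was at 0.181 and 1.55 CPM against 4.97 to 9.82 CPM (log2 fold change 3.04 ± 0.86, edgeR adjusted p = 0.0981).

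**Figure D2:**
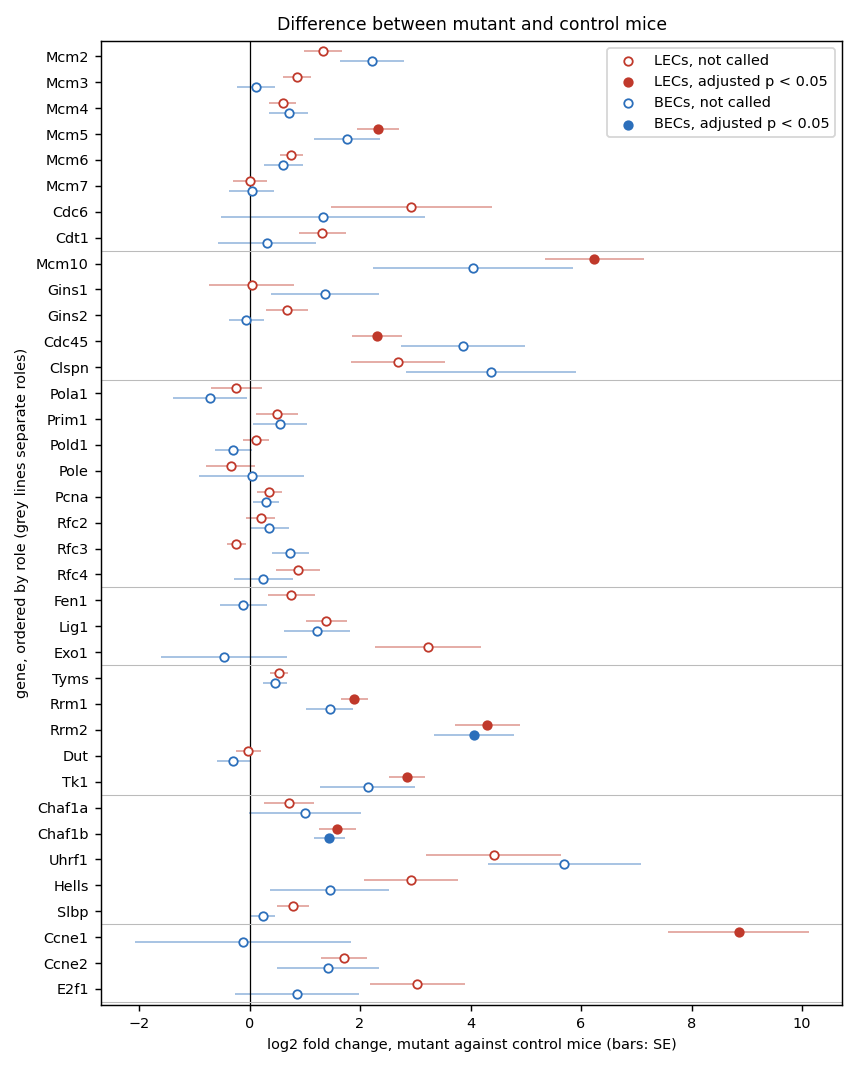
The x axis gives the edgeR log2 fold change of mutant against control mice and the y axis the 37 genes by role (red, LECs; blue, BECs; filled, adjusted p under 0.05; bars, SE; 5 mutant and 2 control mice). Filled red points are the 8 genes called in LECs, filled blue points Rrm2 and Chaf1b, and the polymerase and clamp genes gather near 0 in both cell types.

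The median fold change was larger among genes that were scarce in control mice, with wide ranges. Ranked by CPM per kilobase of exon in control BECs, other cells of the same mice that the LEC contrast does not use, the 12 lowest genes had a median LEC log2 fold change of 2.93 (-0.34 to 6.24), the middle 13 one of 1.32 (-0.24 to 8.85) and the 12 highest one of 0.64 (-0.02 to 1.90), a description with no test. The lowest group held Pole (-0.34), and the gene with the highest value, Ccne1, was in the middle one. In CPM per kilobase, Pcna was the most abundant of the 37 in LECs of both genotypes (30.7 in controls, 38.3 ± 7.69 in mutants, SD, n = 5). Rrm1 went from rank 11 in controls to rank 2 in mutants (8.77 and 31.7 ± 5.82), Mcm5 from 16 to 6 (4.22 and 20.4 ± 6.41) and Rrm2 from 29 to 7 (1.02 and 19.8 ± 6.04). Ranks next to each other seldom differed beyond the spread over mice. In mutant LECs, Mcm3 (20.9 ± 3.47), Fen1 (20.7 ± 5.72), Mcm5 and Rrm2 were within 1 SD of each other.

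Genes outside the 37 gave a frame for these values. Of 42 other replication genes, 4 were called higher in LECs (Rfc5, Gmnn, Ticrr and Ccna2) and 0 lower, with 14 at an unadjusted p under 0.05 and a median log2 fold change of 0.46. Ccna2, cyclin A2, was at 18.7 and 16.7 CPM in controls and at 152, 138, 87.6, 128 and 89.8 CPM in mutants (log2 fold change 2.75 ± 0.29, edgeR adjusted p = 0.00599). Ticrr, which encodes treslin, a factor of helicase activation, had 1 control read, and its ratio was 297 with a counting interval of 53.3 to 11758. Rbl1, which encodes the retinoblastoma relative p107, was at 0.632 and 4.59 CPM against 16.7, 21.9, 10.4, 20.9 and 12.6 CPM and was not called (log2 fold change 2.66 ± 0.76, edgeR adjusted p = 0.102).

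Of 12 mitotic genes, 11 were called (all but Bub1), with a median of 3.52. The mitotic cyclin gene Ccnb1 was at 1.70 and 2.01 CPM against 37, 28.4, 26.4, 41.7 and 40.1 CPM (log2 fold change 4.23 ± 0.34, edgeR adjusted p = 0.00285). Ube2c, the ubiquitin conjugase of mitotic exit, was at 3.32 and 1.47 CPM against 45.5, 45.7, 26.8, 45.4 and 44.4 CPM (log2 fold change 4.12 ± 0.45, edgeR adjusted p = 0.00623). Aurkb, Aurora kinase B, was at 3.88 and 0.479 CPM against 41.0, 34.3, 23.8, 55.2 and 27.6 CPM (log2 fold change 4.07 ± 0.83, edgeR adjusted p = 0.0439). These mitotic genes were higher in each mutant mouse, mutant 5 included.

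BECs of the same mice showed fewer calls. Of the 37 genes 2 were called higher and 0 lower, where 1.51% of 19315 genes tested were called higher. In all, 9 of the 37 had an unadjusted p under 0.05, where 19.6% of all genes did, a share near that background. The log2 fold change was above 0 for 30, with a median of 0.71 against 0.01 over all genes. The mutant mice lay wholly above the controls for 11 of the 37, where 13.6% of all genes did, and DESeq2 called 9, where it called 7.71% of all genes. Rrm2 was at 2.49 and 1.34 CPM in control BECs and at 29.1, 68.2, 24.8, 15.3 and 22.8 CPM in mutants 1 to 5 (log2 fold change 4.06 ± 0.72, edgeR adjusted p = 0.0328). Chaf1b was at 16 and 18.8 CPM against 50.7, 62.8, 45.7, 40.4 and 35.8 CPM (log2 fold change 1.44 ± 0.28, edgeR adjusted p = 0.0423). Both genes were thus higher in each mutant mouse in both cell types. The calls did not hold when single mice were left out. There were 0 without control 1, control 2, mutant 1 or mutant 3, and 1 without mutant 2 or mutant 4. With series as a block there were 0 calls and 5 genes at an unadjusted p under 0.05, where 2041 of all 22015 genes were. In mutant 5 alone the median log2 fold change was 0.40 over the 36 genes tested, against -0.07 over all genes.

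The other genes called in LECs were not called in BECs, among them Cdc45, Tk1 and Ccne1. Cdc45 was at 0.149 and 0.987 CPM in control BECs and at 11.0, 14.7, 7.68, 1.78 and 6.37 CPM in mutants (log2 fold change 3.87 ± 1.12, edgeR adjusted p = 0.120). Tk1 was at 11.0 and 2.28 CPM against 32.2, 59.7, 22.2, 7.99 and 24.7 CPM, where mutant 4 fell between the controls (log2 fold change 2.14 ± 0.86, edgeR adjusted p = 0.220). Ccne1 in BECs was at 0 and 6.63 CPM in the controls and at 6.54, 6.66, 1.49, 0.542 and 0.0397 CPM in the mutants (log2 fold change -0.12 ± 1.95, edgeR adjusted p = 0.981). The groups overlapped, since mutants 1, 3, 4 and 5 lay between the controls for this gene. Of the other replication genes 0 of 42 were called by edgeR (3 at an unadjusted p under 0.05, and 4 by DESeq2), and of the mitotic genes 6 of 12.

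The effect of the mutation was not shown to differ between LECs and BECs for any of the 37 genes. In a fit with mouse as a block, the difference of both effects was called for 0 of the 37 genes by edgeR, where 0.191% of all genes were called in either direction. By unadjusted p under 0.05 there were 4 (Mcm2, Mcm3, Ccne1 and Rfc3), where 11.5% of all genes were, which is no more than the background. DESeq2 called 3, where it called 5.72% of all genes. For Ccne1 the log2 difference was 9.91 ± 3.22 (edgeR adjusted p = 0.308), and it rests on 1 control mouse with reads in BECs. For Rfc3, a subunit of the clamp loader, it was -1.06 ± 0.32 (edgeR adjusted p = 0.263).

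Within mice, LECs and BECs differed for a few of the genes in each genotype, at shares no larger than those over all genes tested. These contrasts share the plates and mice of those above. In mutant mice 3 genes were higher in LECs than in BECs, where 9.90% of all genes were, and 1 was lower, where 9.26% were. Tyms was higher in LECs of all 5 mutant mice, at 82.5, 88.9, 88.4, 83.1 and 87.9 CPM against 60.1, 56.1, 50.1, 47.7 and 61.2 CPM (log2 fold change 0.65 ± 0.10, edgeR adjusted p = 0.00319). Chaf1b was lower in LECs of all 5, at 28.1, 34.9, 24.7, 40.1 and 20.7 CPM against 51.5, 62.1, 46.5, 40.9 and 35.5 CPM (log2 fold change -0.69 ± 0.18, edgeR adjusted p = 0.0334). Mcm2 and Rfc3 were higher in LECs by 0.66 ± 0.18 and 0.66 ± 0.17 (edgeR adjusted p = 0.0338 and 0.0306). The count of 4 fell to 1 without mutant 3 and to 2 without mutant 4 or mutant 5, and was 6 without mutant 2. In control mice 2 of the 37 genes were higher in LECs, where 5.67% of all genes were. Mcm2 was at 19.3 and 30.8 CPM in control LECs and at 5.23 and 12.7 CPM in control BECs (log2 fold change 1.58 ± 0.28, edgeR adjusted p = 0.0111). Rfc3 was at 47.0 and 53.3 CPM against 11.1 and 20.9 CPM (log2 fold change 1.71 ± 0.28, edgeR adjusted p = 0.00723). The count was 0 without control 1 and 4 without control 2.

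LEC subtypes were split by single markers. Cells with at least 100 CPM of Ptx3 formed the Ptx3-high class, of the others those with at least 300 CPM of Cldn11 the valve class, those with more Mmrn2 than Lyve1 the collecting class, and the rest the Ptx3-low capillary class. Among LECs, 26 lay close to the Ptx3 limit, between 80 and 120 CPM. In Ptx3-high LECs, 9 of the 37 genes were called higher in mutant than in control mice, where 2.82% of 16756 genes were, and 1 lower, where 2.21% were. The 9 were Cdc6, Clspn, Exo1, Tyms, Rrm1, Rrm2, Tk1, Ccne1 and Ccne2, and the median log2 fold change of the 37 was 1.13. The control side held 12 and 44 cells, against 62 to 162 per mutant mouse, and summed fibroblast markers were 325 to 971 CPM in controls and 20.8 to 206 CPM in mutants. Rrm1 was at 66.1 and 25.1 CPM against 201, 178, 176, 173 and 96.6 CPM (log2 fold change 1.87 ± 0.44, edgeR adjusted p = 0.0469). Tk1 was at 1.06 and 8.03 CPM against 74.5, 78.8, 43.0, 54.5 and 36.6 CPM (log2 fold change 3.57 ± 0.77, edgeR adjusted p = 0.0367). Neither gene overlapped between groups. Cdc6, Clspn and Ccne1 had 0 reads in the control cells of this class and were at least 58.5-fold, 58.2-fold and 83.2-fold higher in mutants, counted against 3 reads over the control group. Exo1 had 1 control read and a ratio of 123 with a counting interval of 22.1 to 4882.

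Pola1, the catalytic subunit of polymerase alpha, was the gene called lower in the Ptx3-high class. It was at 45.4 and 32.5 CPM in controls and at 13.3, 11.6, 10.2, 9.93 and 6.29 CPM in mutants 1 to 5 (log2 fold change -1.92 ± 0.45, edgeR adjusted p = 0.0469). All mutants were below both controls, which rest on 56 cells. Over all LECs Pola1 was not called (log2 fold change -0.24). The count of 10 called genes in this class moved with single mice, to 18 without control 2 and to 2, 3, 3, 2 and 4 without mutants 1, 2, 3, 4 and 5. It was 0 with series as a block, where 12 genes had an unadjusted p under 0.05, as did 1925 of all 19176 genes. In mutant 5 alone the median log2 fold change of the 37 genes was 0.41, against -0.02 over all genes tested.

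In Ptx3-low capillary LECs 1 of the 37 genes was called higher, where 0.182% of 17620 genes were. This was Uhrf1, with 2 reads in control 1, 0 in control 2 and 34.3, 42.0, 17.2, 29.5 and 11.7 CPM in mutants 1 to 5 (edgeR adjusted p = 0.0375, ratio 732 with a counting interval of 203 to 6047). When 1 mouse was left out the count was 0, except without mutant 5, when it was 1. Mcm5 missed the limit narrowly, at 8.93 and 13.0 CPM against 96.8, 65.9, 46.5, 57.3 and 52.3 CPM (log2 fold change 2.54 ± 0.40, edgeR adjusted p = 0.0509). So did E2f1, on 11 control reads (log2 fold change 5.75 ± 0.95, edgeR adjusted p = 0.0529). Rrm1 was further from the limit (log2 fold change 1.63 ± 0.31, edgeR adjusted p = 0.0716). The median over the 37 genes was 0.92. In collecting LECs edgeR called 0 of the 34 genes tested and 0% of all 13149 genes (4 of the 34 at an unadjusted p under 0.05, against 5.92% of all genes, and 3 by DESeq2, against 1.69%), with 11 to 27 cells per mouse.

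Within mutant mice, Ptx3-high LECs were set against all other LECs. Of the 37 genes 1 was called higher, a share like the 2.59% of 18586 genes called higher in all. Rrm1 was at 207, 183, 179, 172 and 95.9 CPM in Ptx3-high LECs and at 84.5, 127, 99.0, 119 and 73.4 CPM in the rest, higher in 5 of 5 mice (log2 fold change 0.72 ± 0.14, edgeR adjusted p = 0.0359). Tk1 (0.82 ± 0.18), Mcm5 (0.76 ± 0.17), Mcm2 (0.73 ± 0.16) and Tyms (0.75 ± 0.17) were also higher in 5 of 5 mice and just missed the limit (edgeR adjusted p = 0.0512, 0.0530, 0.0530 and 0.0560). The median log2 fold change over the 37 genes was 0.34, and 11 had an unadjusted p under 0.05, where 19.6% of all genes did. The count was 0 without mutant 1, 2, 3 or 4 and 3 without mutant 5.

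The single cells showed how the sums were made up. The CPM of the 37 genes were summed in each cell and averaged per mouse. In LECs the mean was 873 and 867 CPM in controls 1 and 2 and 1550, 1568, 1273, 1140 and 1039 CPM in mutants 1 to 5 (1314 ± 239, SD, n = 5). The mutants all lay above the controls, by a ratio of the means of 1.51. The median cell differed less, at 717 and 732 against 901, 895, 784, 688 and 752 CPM, where mutant 4 fell below the controls. The 10% of cells with the highest sums held 28.9 and 32.0% of the sum in controls and 35.7 to 48.7% in mutants. In BECs the mean was 783 and 759 CPM against 984, 1356, 959, 899 and 885 CPM, again without overlap, and the ratio was 1.32. The BEC difference of 246 CPM was 161 CPM without mutant 2 and 115 CPM in mutant 5 alone. As summaries over chosen genes these values are descriptions without a test.

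**Figure D3:**
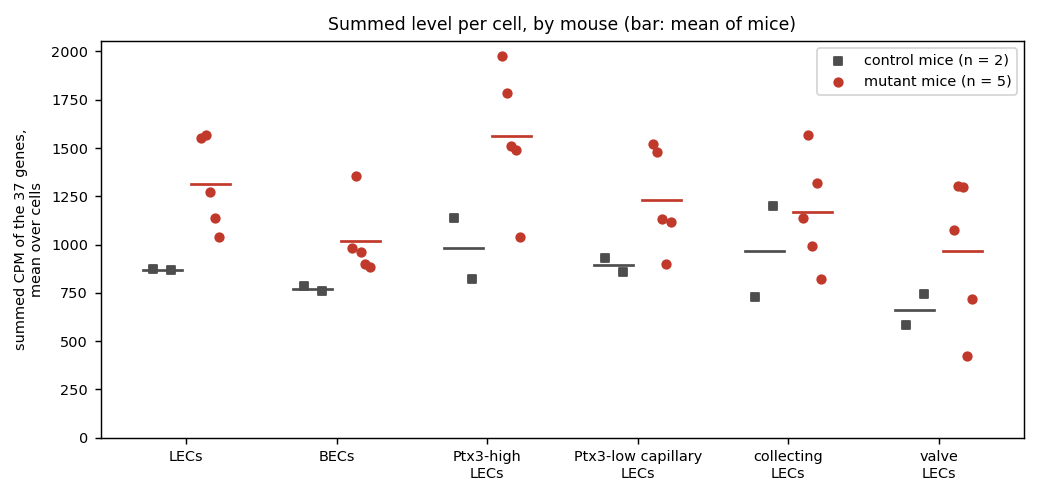
The y axis gives the summed CPM of the 37 genes per cell, averaged over the cells of a mouse, for 6 cell classes on the x axis (grey squares, control mice; red circles, mutant mice; bars, means of mice). Red points lie above all grey points in LECs and BECs, and overlap them in the Ptx3-high, Ptx3-low capillary, collecting and valve classes.

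Among subtypes the mean summed level was highest in Ptx3-high LECs of mutant mice, at 1978, 1783, 1509, 1491 and 1038 CPM, against 1138 and 822 CPM in controls. Mutant 5 lay between the controls. In Ptx3-low capillary LECs it was at 1522, 1477, 1132, 897 and 1118 CPM against 931 and 856 CPM, and mutant 4 overlapped. In collecting LECs it was at 822 to 1570 against 729 and 1201 CPM and in valve LECs at 425 to 1305 against 584 and 742 CPM, both with overlap. In mutant mice the 4 classes had means of 1560, 1229, 1168 and 965 CPM (SD 355, 264, 290 and 385, n = 5). Within the same mice, Ptx3-high LECs were above collecting and valve LECs in 5 of 5 and above Ptx3-low capillary LECs in 4 of 5. Ptx3-low capillary LECs were above collecting LECs in 3 of 5 and above valve LECs in 4 of 5, as were collecting above valve LECs.

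A minority of LECs carried many of the genes at once. Each cell was thinned to 50000 reads, and cells with reads of at least 10 of the 37 genes were counted. In LECs these were 4 of 183 and 6 of 175 cells in controls 1 and 2 (2.19 and 3.43%). In mutants 1 to 5 they were 19.0, 17.6, 14, 14.3 and 15% of cells (16 ± 2.21, SD, n = 5). The lowest Wilson 95% bound of a mutant mouse was 9.94% and the highest bound of a control 7.28%, both covering counting error only. In BECs the shares were 2.52 and 1.91% against 12.6, 10.9, 6.97, 3.45 and 3.96%. The intervals of mutants 3, 4 and 5 overlapped those of both controls. Without thinning the LEC shares were 57.9 and 24.0% in controls and 88.0, 31.6, 47.7, 37.4 and 82.6% in mutants, so that the groups overlapped. Genes detected per thinned LEC moved in part with genotype, with medians of 3422 and 3450 in controls and 3928, 3435, 3815, 3726 and 4175 in mutants. Their part in these shares was not tested.

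**Figure D4:**
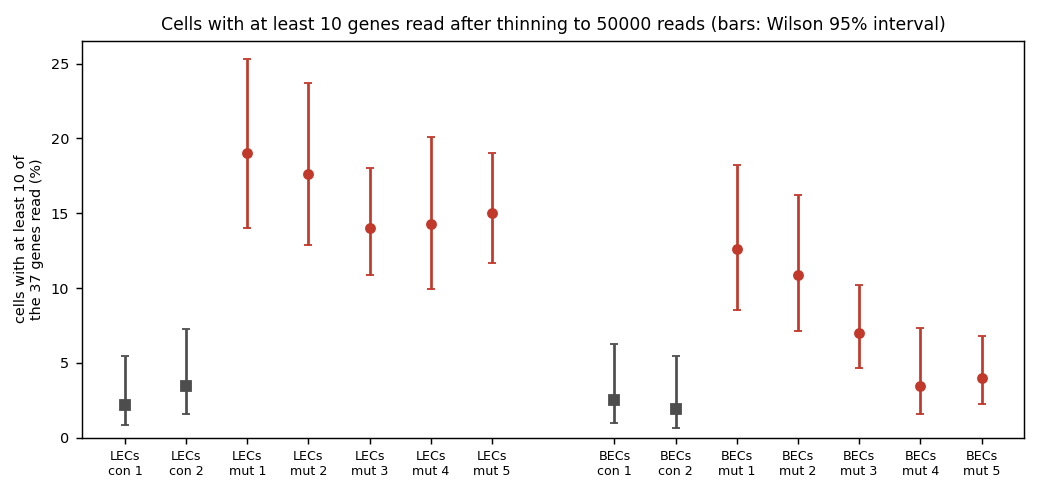
The y axis gives the share of cells with reads of at least 10 of the 37 genes after thinning to 50000 reads, for each mouse on the x axis (con, control; mut, mutant; bars, Wilson 95% intervals). LEC shares of the mutants lie between 14 and 19.0%, above both controls, and BEC shares between 3.45 and 12.6%.

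By subtype, such cells made up 29.0, 29.0, 22.2, 19.7 and 15.4% of Ptx3-high LECs in mutants 1 to 5, against 2 of 12 and 2 of 44 cells in the controls (16.7 and 4.55%). Control 1 overlapped mutant 5 on few cells. In Ptx3-low capillary LECs they were 19.4, 12.5, 10.3, 13.9 and 17.3% against 0.820 and 3.12%, without overlap. In collecting LECs they were 8.70, 18.2, 3.70, 5.88 and 9.09% against 3.70 and 6.25%, with overlap. In valve LECs they were 0 to 11.1% against 0 of 22 and 0 of 19 cells in the controls, whose upper Wilson bounds were 14.9 and 16.8%. Mutants 1 to 4 thus had the larger share in the Ptx3-high class and mutant 5 in the Ptx3-low capillary class, and these differences were not tested.

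The share of cells with a read differed from gene to gene. Rrm2 was read in 1.64 and 0.571% of thinned control LECs and in 25.0, 15, 12.7, 19.2 and 15.5% of mutant LECs. Uhrf1 was read in 0 and 1.14% against 14.1, 11.2, 9.09, 8.79 and 8.17%. Pcna, by contrast, was read in 49.2 and 40.0% of control LECs and in 52.9 to 62.5% of mutant LECs, that is in many cells of every mouse. Cdc6, Mcm10, Ccne1 and E2f1 stayed below 8% of LECs in each mutant mouse.

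In mutant mice 200 LECs had at least 10 of the genes and 1083 had fewer. The former had many reads of these genes by choice, so their shares describe the choice. The other 1083 mutant LECs can be set beside the 358 control LECs, although leaving out the cells with many genes lowers their shares. Rrm2 was read in 9.60% of them against 1.12% of control LECs, Rrm1 in 32.8 against 16.2%, Tk1 in 9.14 against 4.47% and Uhrf1 in 2.86 against 0.559%. Other genes were read in fewer of them, such as Mcm7 (22.8 against 36.3%), Pole (3.42 against 9.50%) and Gins1 (2.59 against 6.42%). These shares are pooled over mice and were not tested.

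**Figure D5:**
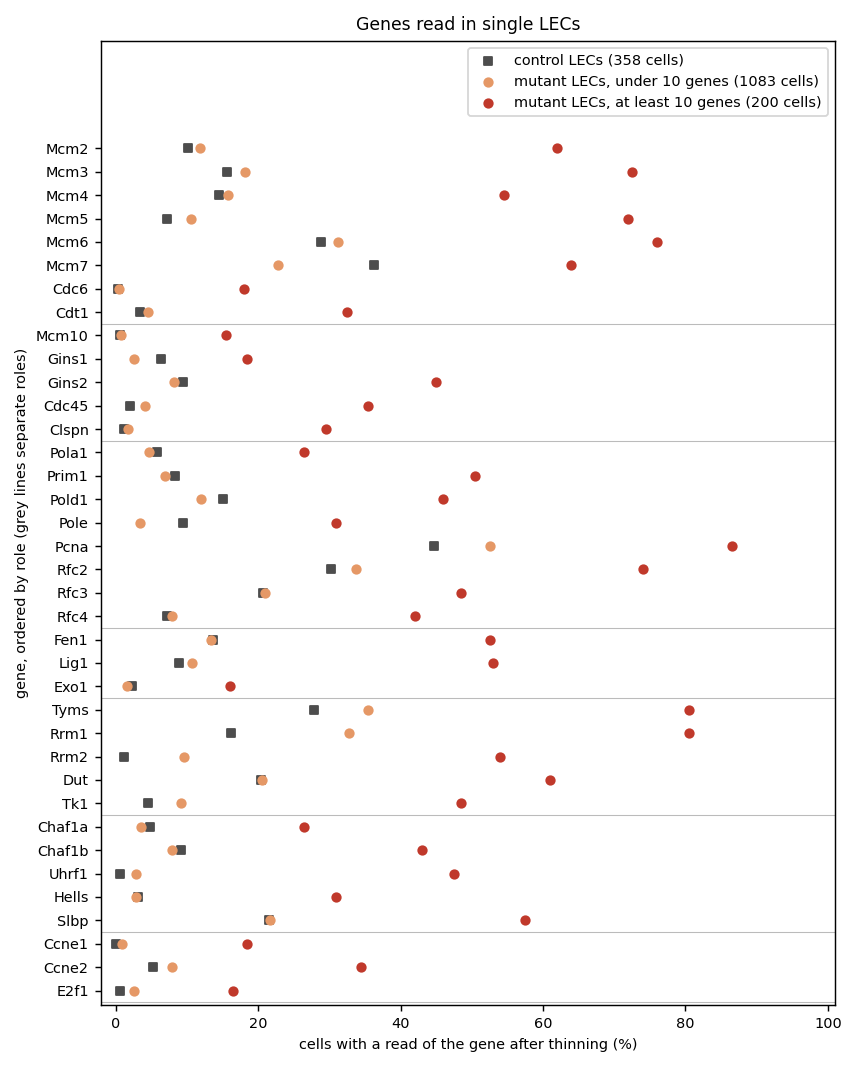
The x axis gives the share of LECs with a read of each gene after thinning to 50000 reads and the y axis the 37 genes by role (grey squares, 358 control LECs; orange, 1083 mutant LECs with fewer than 10 of the genes; red, 200 mutant LECs with at least 10, chosen on these reads). Orange and grey points lie close together for most genes and apart for Rrm1 and Rrm2 (orange higher) and Mcm7 (orange lower).

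Reads of mitotic genes divided the 200 cells. At least 3 of the 12 mitotic genes were read in 124 of them (62.0%) and in 17.6% of the other mutant LECs, and the share was the higher one in each of the 5 mice. The cells with many of the genes also had more genes detected after thinning, with a median of 5084 against 3718, and its part in this was not tested. Among licensing genes, Mcm2 was read in 62.1% of cells with and 61.8% without mitotic genes, Mcm3 in 71.8 and 73.7% and Mcm6 in 75.8 and 76.3%, and for Mcm5 the pooled shares were 76.6 and 64.5% and for Cdc6 22.6 and 10.5%, differences that were not tested. Pcna was read in 83.1% with and in 92.1% without. Within the 200 cells, other genes had a larger share in those with mitotic genes. Among them were Rrm2 (75.0 against 19.7%), Tk1 (73.4 against 7.89%), Clspn (42.7 against 7.89%) and Mcm10 (23.4 against 2.63%). The 200 cells were chosen on reads of these same genes, so these shares depend on that choice and were not tested. Rrm2, Tk1, Clspn, Mcm10, Uhrf1 and Rrm1 were higher with mitotic genes in 5 of 5 mice, Mcm2 in 3, Mcm3 and Mcm6 in 2 and Pcna in 0. The cells per mouse were 19 to 31 with and 7 to 24 without mitotic genes. In control mice only 10 LECs had at least 10 of the genes, 2 of them with mitotic genes, which is too few to divide.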

How the data were processed

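Deposited values were raw read counts per gene and well of 9 plates from 7 mice. Per the labels and methods, the authors aligned Smart-Seq2 reads to GRCm38 plus the chicken PIK3CA sequence with TopHat2 2.1.1, removed duplicates with SAMtools 0.1.18 and counted with featureCounts. The annotation version is not given in the sources used here. Wells below 200 genes or 50000 reads or above 10% mitochondrial reads were dropped, classes were set by marker CPM (limit 300), no doublet caller was run, and counts were summed per mouse (at least 5 cells). LEC sums held 55616045 to 194353210 reads, BEC sums 38402388 to 99630824 and Ptx3-high sums 4098711 to 94444356. The main test was edgeR's quasi-likelihood F test (edgeR 4.0.16 under R 4.3.3, after filterByExpr and TMM) over all genes tested, with DESeq2 1.42.0 as an alternative, and the fit was tested on simulated data. SE is the absolute log2 fold change over the square root of F. Other alternatives were DESeq2 size factors, no expression filter, other class limits, first plates, thinned cells, cells with under 100 CPM of the other class, series or replicate blocks and each mouse left out. P-values measure the spread between these mice. Reads without molecular barcodes are not independent molecules, so counting intervals (Wilson for shares) cover counting error only. Positions and exon overlaps are from GENCODE vM21 (GRCm38) and promoters from RefSeq GRCm38.p6, where Mcm4, Gins1, Gins2, Pole, Rfc2, Exo1 and Ccne2 had no entry. Cells were handled in Python 3.11.15 with pandas 2.3.3, numpy 2.4.6 and scipy 1.17.1.

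The 37 genes, the other lists and the tests were chosen with earlier results of these data known. Named genes were, per role, those with the highest mean level and the largest absolute log2 fold change in LECs, the 3 genes of smallest change, genes with a sequence shown and, from the other lists, those of largest change. Called genes and further members named outside this rule were chosen after their values were seen.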

Additional observations from a re-analysis of the deposited data

Results flagged for a closer look

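In groups of 5 mutant mice, 8 of 86 gene or class values had 1 mouse apart from the others, by a gap over the whole range above 0.71, where chance gives about 1 in 20 groups, or 4.30. In LECs this was Cdc45 (gap over range 0.745), with mutant 5 at 11.1 CPM and the others at 24.9 to 29.6 CPM. In BECs mutant 2 stood above the other mutants for Cdc6 (0.858; 10.1 against 0.436 to 1.82 CPM), Mcm10 (0.791; 6.68 against 0.170 to 1.53 CPM), Rrm2 (0.739; 68.2 against 15.3 to 29.1 CPM), Uhrf1 (0.885; 54.0 against 8.24 to 13.5 CPM), Ccne2 (0.719; 23.2 against 5.06 to 10.2 CPM) and for the mean summed CPM of the 37 genes (0.790; 1356 against 885 to 984). Rfc4 in BECs (0.817) was lower in mutant 4, at 7.95 against 12.5 to 13.5 CPM.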

How the results depend on the processing

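Of the 37 genes called in LECs (8), the count was 20 with DESeq2, 3 in cells with under 100 CPM of the other class (Cdc45, Rrm1 and Tk1), 0 in mutant 5 alone, 2 with series as a block and 0 with the replicate block. The fit on cells with under 100 CPM of the other class left out 1334 of the 1641 LECs. The count was 2 to 9 with 1 mouse left out. In BECs (2) it was 9 with DESeq2, 1 at class limits of 100 or 1000 CPM, 0 on first plates, in mutant 5, with series as a block and with the replicate block, and 0 to 2 with 1 mouse left out. In Ptx3-high LECs (10) it was 17 with DESeq2, 0 in mutant 5 and with the series block, 1 with the replicate block and 2 to 18 with 1 mouse left out. In Ptx3-low capillary LECs (1) it was 13 with DESeq2, 5 at a Ptx3 limit of 300 CPM, 2 without the filter, 0 in mutant 5, with series and with the replicate block, and 0 to 1 with 1 mouse left out. Collecting LECs (0) gave 3 with DESeq2 and the difference between cell types (0) 3, and both stayed at 0 with any mouse left out. LECs against BECs in mutant mice (4) gave 17 with DESeq2, 2 in cells with under 100 CPM of the other class and 1 to 6 with 1 mouse left out. In control mice (2) they gave 10 with DESeq2, 5 in thinned cells, 1 in cells with under 100 CPM of the other class and 0 to 4 with 1 mouse left out. Ptx3-high against other LECs (1) gave 9 with DESeq2, 0 and 4 at Ptx3 limits of 300 and 50 CPM, 6 in thinned cells and 0 to 3 with 1 mouse left out. Over all genes tested, DESeq2 called 2490 of 19758 in LECs and 2238 of 19315 in BECs, in either direction. It called 2926 of 16756 in Ptx3-high LECs and 1096 of 17620 in Ptx3-low capillary LECs. For LECs against BECs it called 6058 of 21933 genes in mutant mice and 4360 of 21933 in control mice. For Ptx3-high against other LECs it called 2857 of 18586. The cause of the changes between settings was not tested.

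The difference in mean summed CPM between genotypes in LECs (444) was 169 in mutant 5 alone and 79.6 for the median cell, and in BECs (246) it was 115 in mutant 5 alone, 161 without mutant 2 and 48.2 for the median cell. The difference in the share of LECs with at least 10 genes (13.2 percentage points) was 20.1 at 5 genes, 6.31 at 15 and 16.5 without thinning, and in BECs (5.35) 22.2 at 5 genes. Genes near 0 changed sign in LECs. Dut was at 0.00 at a class limit of 100 CPM, 0.12 on first plates, 0.04 without the filter and 0.13 with the replicate block, and at -0.14 to 0.03 with 1 mouse left out. Gins1 was at -0.13 in thinned cells and with the replicate block, -0.41 in mutant 5 and with the series block, and -0.60 to 1.34 with 1 mouse left out. Mcm7 was at -0.01 with DESeq2 and with its size factors, -0.16 in thinned cells, -0.05 at a class limit of 1000 CPM, -0.03 on first plates, -0.94 in mutant 5 and with the series block, and -0.09 to 0.17 with 1 mouse left out. Pcna was at -0.08 in mutant 5 and with the series block. Same-numbered control and mutant mice did not deviate together (r = -0.03 and -0.04 over 9835 genes). The deviations of 2 controls from their mean mirror each other, so these values cannot exclude that replicate numbers paired samples.

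With 2 control mice, 1 of which decides many low values, and genotype mostly split like plate series, these data do not separate the genotype from the series beyond mutant 5. Genes of under 10 control reads have ratios with wide counting intervals.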
